A study of Mus musculus with 8 samples.

Results

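Zbtb16, Fkbp5, Per1, Klf9, Tsc22d3 and Sgk1 are classic target genes of the progesterone and glucocorticoid receptors. They were followed here through the accessible chromatin around them in mouse granulosa cells, which line the follicle and nurse the egg. These 6 genes, of 21631 protein-coding genes on chromosomes 1 to 19 and X, were picked with earlier results of these data in view. Every accessible region over a gene body or within 50 kb of it was taken, which gave 138 of the 98245 regions of the whole series. The genes were chosen by the presence of peaks around them in the 8 lists, so the counts below are a description and carry no test.

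ATAC-seq, in which the transposase Tn5 tags open DNA, was done on 8 libraries, each from the pooled cells of 2 to 3 mice, with 2 biological replicates a group. All mice were 21 days old and had received 5 IU of eCG (also called PMSG, which drives follicle growth) 46 h before they were killed or injected again. In the LH experiment, wildtype CBA x C57BL/6 F1 mice were either killed at that point (PMSG) or given 5 IU of hCG, which stands in for the ovulatory surge of luteinising hormone, and killed 6 h later (hCG). The PR experiment compared wildtype (WT) and PR knockout (KO) mice of the strain C.129S7(B6)-Pgrtm1Bwo/OmcJ, in which the gene of the progesterone receptor, Pgr, carries a targeted allele; per the design text all of these had received hCG. The time tags of the LH libraries read the other way round, 0 h for hCG and 6 h for PMSG; titles and source names were followed, and every direction between the 2 rests on them.

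Steroid receptors of this family rest with chaperones of the HSP90 machine, move onto DNA when hormone binds, and bind as dimers to a palindrome of 2 half-sites. The progesterone and glucocorticoid receptors recognise nearly the same palindrome, so one gene can answer to either hormone. In granulosa cells of the preovulatory follicle, Pgr is switched on by the luteinising hormone surge, and mice without it fail to ovulate.

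Promoter sequences are shown for the members whose start site held one of the searched motifs, since these are the places where a motif and a peak could be compared. RefSeq (GRCm38.p6) promoter windows, 250 bases before the start site, were found for 5 of the 6 members, Zbtb16 having no entry. Capitals mark the matches. Sgk1 on chr10:21993640-21993889 (plus strand) holds the palindrome (GNACA and TGTNC with 3 bases between) with the half-site AGAACA on each of its sides and once more alone. The outer start of Tsc22d3 on chrX:140600523-140600772 (minus strand) holds the half-site. Klf9 on chr19:23140976-23141225 (plus strand) holds the AP-1 motif TGANTCA, and Per1 on chr11:69099902-69100151 (plus strand) the RUNX motif TGTGGT.
Sgk1: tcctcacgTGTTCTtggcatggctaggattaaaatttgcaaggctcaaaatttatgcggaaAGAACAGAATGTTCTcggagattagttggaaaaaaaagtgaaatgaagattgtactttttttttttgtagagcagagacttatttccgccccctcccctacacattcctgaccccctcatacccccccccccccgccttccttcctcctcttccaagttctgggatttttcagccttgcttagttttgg
Tsc22d3: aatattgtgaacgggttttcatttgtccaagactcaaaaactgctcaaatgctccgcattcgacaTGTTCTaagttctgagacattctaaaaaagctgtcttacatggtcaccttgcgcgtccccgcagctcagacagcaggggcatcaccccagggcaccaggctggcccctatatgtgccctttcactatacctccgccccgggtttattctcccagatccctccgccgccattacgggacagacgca
Klf9: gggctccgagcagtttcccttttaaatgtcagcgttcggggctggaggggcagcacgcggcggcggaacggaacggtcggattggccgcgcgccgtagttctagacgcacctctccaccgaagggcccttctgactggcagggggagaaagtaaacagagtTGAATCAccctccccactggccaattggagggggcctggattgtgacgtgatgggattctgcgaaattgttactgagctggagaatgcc
Per1: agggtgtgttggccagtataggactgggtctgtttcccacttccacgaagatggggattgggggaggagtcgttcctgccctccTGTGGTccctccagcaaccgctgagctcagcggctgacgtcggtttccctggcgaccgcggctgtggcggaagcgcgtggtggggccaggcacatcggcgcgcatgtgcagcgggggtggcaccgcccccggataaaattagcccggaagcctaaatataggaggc

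Both strands were searched, and the half-sites of the Sgk1 palindrome overlap it. Of 32851 promoter windows of this length, 0.387% held the palindrome, 16.1% the half-site, 14% the RUNX motif and 6.75% the AP-1 motif. The palindrome of Sgk1 starts 188 bases before the start site it belongs to, and no library had a peak over it: the nearest accessible region lay 201 bases away. By contrast, the half-site of Tsc22d3, the AP-1 match of Klf9 and the RUNX match of Per1 were covered by a peak in all 8 libraries. The fold of these peaks over their library's background was 2.47 to 2.85 at Per1, 3.13 to 5.8 at Tsc22d3 and 8.17 to 11.7 at Klf9. A second RUNX match, at the inner start of Tsc22d3, was covered in all 8 as well. At other Sgk1 starts, 2 more RUNX matches (21881935 and 21986023) and 2 more half-sites (21881989 and 21992210) had no peak over them in any library, so matches of both motifs were found with and without a peak. The NR5A motif CAAGGTCA (1.33% of windows) was found at 2 of the Sgk1 starts, without a peak over it, and the CRE motif TGACGTCA (1.55%) at no start of the 5 members. A match describes letters, not binding.

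The lists differed in length, from 55654 intervals in KO replicate 2 to 84313 in WT replicate 2, and the WT lists were the longest. The main counts are therefore also given with the 55654 strongest intervals of every list, called the equal lists. A region called absent from an equal list can still have a weaker interval in the full list. Granulosa markers were open at a gene end for 6 or 7 of 8 genes in every library; Cyp19a1 had no peak there in any library. Of 5 leukocyte markers at most 1 was open in a given library, with Ptprc, Adgre1 and Csf1r at 0 in all. Theca and stroma markers were open for 0 to 3 of 4, endothelial ones for 2 of 4, smooth muscle ones for 2 or 3 of 3, surface epithelial ones for 2 or 3 of 3, and oocyte ones for 1 or 2 of 2; the part of such cells in the results was not tested. At the lower-coordinate end of Pgr every WT and LH list held 1 interval and both KO lists held 2 with a gap, so that the lists separate KO from WT as labelled. In pooled cells, fewer cells with an open site cannot be told apart from a less open site in each.

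Zbtb16, which encodes the zinc-finger repressor PLZF, differed most between the groups among the 6 genes. The gene spans 184 kb of chromosome 9 (48651797 to 48836225, mm10), and its window held 29 regions, of which 25 lay over the gene body. PMSG replicates 1 and 2 held 11 and 11 of these regions, hCG replicates 21 and 21, WT replicates 23 and 28, and KO replicates 10 and 9. The 2 post-hCG groups with intact Pgr thus lay well above both the PMSG and the KO group, with no overlap. The whole lists were also longer in these 2 groups, without overlap. They held 57992 and 58780 intervals in PMSG, 65567 and 62327 in hCG, 80137 and 84313 in WT, and 58851 and 55654 in KO. In the equal lists, where 23 regions remained, the numbers were 11 and 11 in PMSG, 18 and 19 in hCG, 18 and 21 in WT, and 9 and 9 in KO. Covered sequence in the window followed the same order. It was 5.56 and 5.52 kb in PMSG, 10.4 and 11.3 kb in hCG, 13.3 and 13.9 kb in WT, and 5.14 and 5.11 kb in KO.

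**Figure D1:**
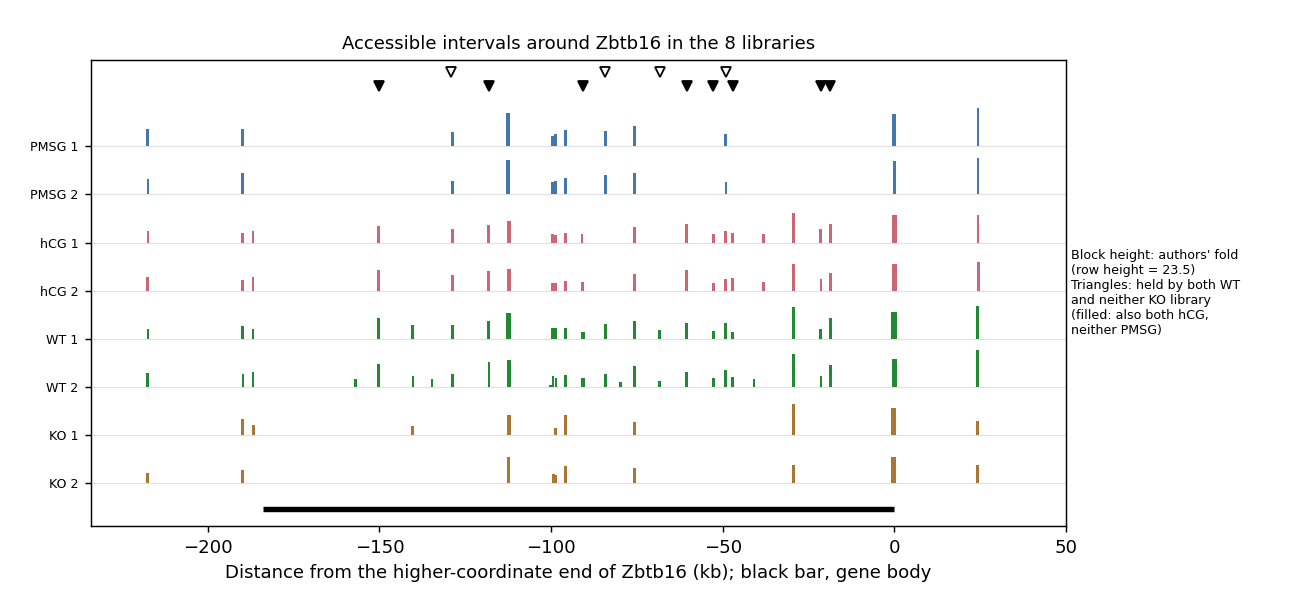
Accessible intervals around Zbtb16, by distance in kb from the higher-coordinate end of the gene; each row is 1 library, block height is the authors' fold and narrow intervals are widened to be visible. Filled triangles mark the 8 regions that were hCG-only and WT-only at once, and open triangles the other 4 regions that were WT-only.

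A region held by both libraries of one group and by neither of the opposing group is named after the group that held it (hCG-only or PMSG-only in the LH experiment; WT-only, or KO-only, in the PR experiment). Around Zbtb16, 12 of 29 regions were WT-only (41.4%), against 11.2% of all 98245 regions, and 0 were KO-only, against 0.0743%. In the equal lists 8 of 23 were WT-only (34.8%), against 2.34% of all 81563 regions, and 0 were KO-only, against 2.1%. hCG-only regions numbered 11 (37.9%), against 14.5% of all regions, and PMSG-only regions 1 (3.45%), against 8.49%. Equal lists gave 9 hCG-only and 1 PMSG-only, against 14.3% and 12.3% of all regions. As the gene was picked with these contrasts known, the backgrounds are given for scale only. Leaving out 1 library relaxes the rule for every region. Over all regions the WT-only share was then 21.4% without WT replicate 1, 17.8% without WT replicate 2, 18.3% without KO replicate 1 and 14.8% without KO replicate 2. The hCG-only share was between 15.8% and 17.8% and the PMSG-only share between 9.27% and 11% without 1 LH library.

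The PR and LH experiments share no library, and many of the same stretches of Zbtb16 were open in the hCG group of one and the WT group of the other, while the KO group, also killed after hCG, had no peak there. Of the 11 hCG-only regions, 8 were also WT-only (8 of 12 WT-only regions). Over all regions, 16.6% of the hCG-only regions were WT-only and 21.5% of the WT-only regions were hCG-only. Equal lists gave 5 regions that were both around Zbtb16, of 9 hCG-only and 8 WT-only, against 5.6% and 34.1% over all regions. Zbtb16 was picked with these contrasts known, so its ranks among genes are given for scale only. No other of the 21631 genes had as many as 8 WT-only regions in its window in the equal lists, and none other had as many as 5 that were also hCG-only. With all peaks, 10 genes (0.0462%), Zbtb16 among them, had 12 or more WT-only regions, 4 of these among 2264 genes of similar length. The median gene had 1. For hCG-only regions Zbtb16 stood less far out: 32 genes had 11 or more with all peaks (16 of similar length), and 48 had 9 or more in the equal lists (29 of similar length), Zbtb16 among them.

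All 12 WT-only and 10 of the 11 hCG-only regions lay over the gene body of Zbtb16. The 8 shared ones lay 150, 118, 90.7, 60.4, 52.7, 47.1, 21.4 and 18.6 kb from its higher-coordinate end, where the region at the gene end was open in all libraries. The gene table holds no exons, so exons and introns could not be told apart. Gm32280, a gene model inside Zbtb16, and Nnmt, at the lower edge of the window, share the stretch. At the edges of the 50 kb flanks, the outermost regions inside the window lay 32.8 kb below the gene (held by 7 libraries) and 23.8 kb above it (8 libraries). The nearest regions outside lay 113 kb below (1 library) and 57.8 kb above, where a region was WT-only and held by 2 libraries. Just outside the other windows, a region 59.4 kb from Fkbp5 and one 74.4 kb from Klf9 were both hCG-only and WT-only. Over all regions, 2.41% were both. One 52.6 kb from Per1 was WT-only, and the other nearest regions outside these windows were none of these. Pgr itself lies on the same chromosome, 39.7 Mb away; the part of DNA linked to the targeted allele was not tested.

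One strong shared region lay at 48685801 to 48686178. The authors' fold there, the peak's enrichment over the background of its own library, was 7.97 and 10.2 in the hCG libraries and 10.2 and 11.2 in the WT libraries, and no PMSG or KO library had an interval. At 48717943 to 48718311 the fold was 8.39 and 9.6 in hCG and 8.65 and 12.3 in WT, again with none in PMSG and KO. At 48817429 to 48817826 it was 9.18 and 8.56 in hCG and 10.3 and 10.8 in WT. For scale, among all 39189 regions held by both WT libraries with a mean fold of 8 or more, a limit chosen after the values were seen, 3.18% were missing from both KO libraries. The weaker shared regions had folds as low as 3.73 in hCG and 3.43 in WT.

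Not every hCG-only region of Zbtb16 was missing in KO. The strongest, at 48806480 to 48807263 and 29.4 kb inside the gene, was absent from both PMSG libraries and had a fold of 14.4 and 13.2 in hCG, 15.5 and 15.9 in WT, and 14.9 and 8.63 in KO. It was thus open in all 6 post-hCG libraries, KO included. The region at 48649067 to 48649741, just below the gene, was held by both hCG, both WT and KO replicate 1 (fold 5) but not by KO replicate 2. The weak region at 48797970 to 48798301 was held by the hCG libraries alone (4.13 and 4.3).

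The other 4 WT-only regions had other LH patterns. Those at 48707230 to 48707765 and at 48786859 to 48787426 were open in both PMSG, both hCG and both WT libraries and missing from KO alone; the fold at the former was 7.21 and 6.73 in PMSG, 6.58 and 7.47 in hCG, and 6.61 and 6.41 in WT. The region at 48751803 to 48752179 was PMSG-only in the LH experiment (7.5 and 9.27) and held by both WT (7.17 and 6.18). The last, at 48767609 to 48768165, was held by WT alone.

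**Figure D2:**
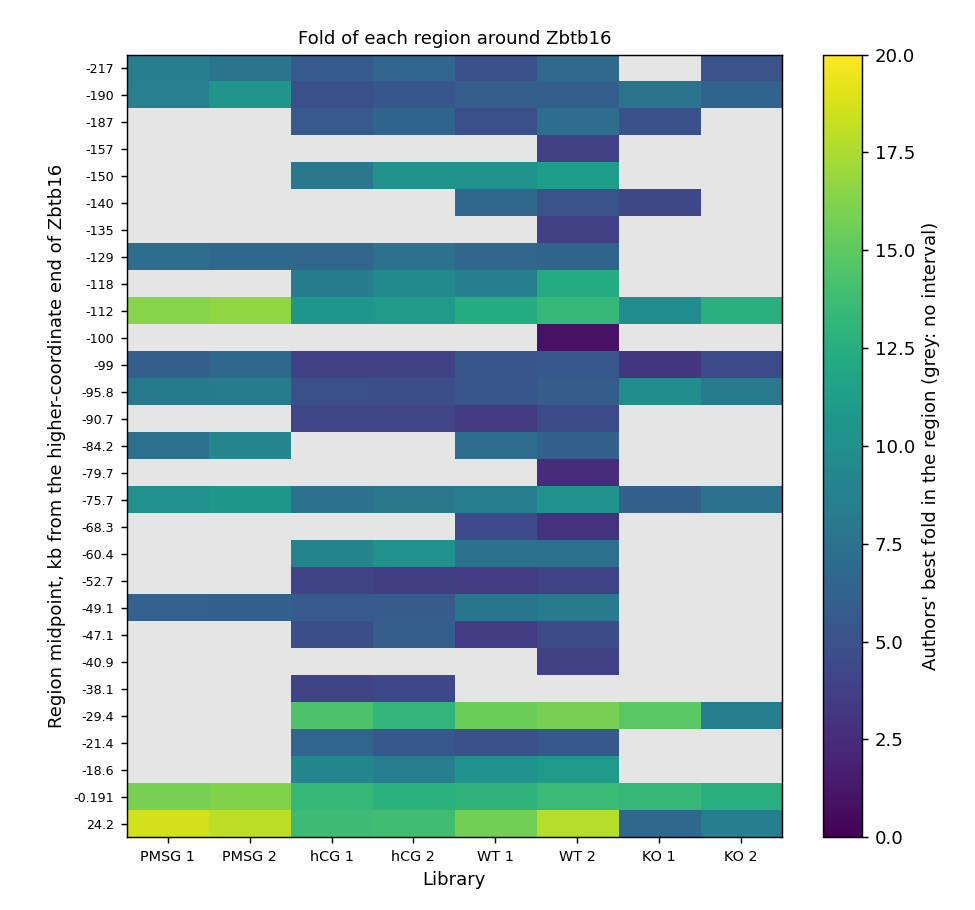
The authors' best fold in each of the 29 regions around Zbtb16 (rows, by kb from the higher-coordinate end of the gene) in the 8 libraries (columns); grey means no interval. In 8 rows all hCG and WT columns are filled and the PMSG and KO columns are grey. Other rows that are grey in PMSG and KO are filled in only some of the hCG and WT columns. The row at -29.4 kb is filled in every post-hCG library.

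All 8 libraries held 7 of the 29 regions (37.9% of all regions of the series were so held), and 7 of 23 in the equal lists (41%). There, ranks by fold within the equal lists can be set side by side as percentiles. The region over the higher-coordinate end of Zbtb16 (48835151 to 48836918) had a fold of 15.9 and 16.2 in PMSG, 13.3 and 12.8 in hCG, 13 and 13.6 in WT, and 13.3 and 12.5 in KO. Its percentile within the list was 88 and 87.7 in PMSG, 83.5 and 79.5 in hCG, 75.7 and 72.5 in WT, and 85.7 and 82.8 in KO. Both PMSG libraries were thus above and both WT libraries below all others. The region 24.2 kb beyond it (48860068 to 48860879) stood at percentile 96.2 and 93.6 in PMSG, 85.8 and 86.7 in hCG, and 90.4 and 92.3 in WT, and at 29.6 and 58.5 in KO. Both KO libraries were below all 6 others there.

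The opposite order was seen 95.8 kb inside the gene, at 48740135 to 48740653. There the percentile was 59.9 and 54.8 in KO and 37.7 and 36.2 in PMSG, but 8.79 and 9.4 in WT and 7.58 and 7.03 in hCG. Another region, at 48646116 to 48646789, stood at 39.8 and 36.8 in KO and 43.5 and 54.6 in PMSG, and at 12.7 and 10.7 in WT and 7.87 and 9.98 in hCG. At both sites, picked after their values were seen, the KO libraries lay nearer to the PMSG libraries than to the WT libraries. The other 3 regions held by all 8 libraries did not show this order. At 48723096 to 48724481 the percentile was 89.8 and 89.7 in PMSG, 71.4 and 70.7 in WT, and 58.6 and 83.2 in KO. In the remaining pair, too, the KO libraries differed widely from each other, with 2.22 and 11.5 at one and 22.8 and 48.4 at the other.

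**Figure D3:**
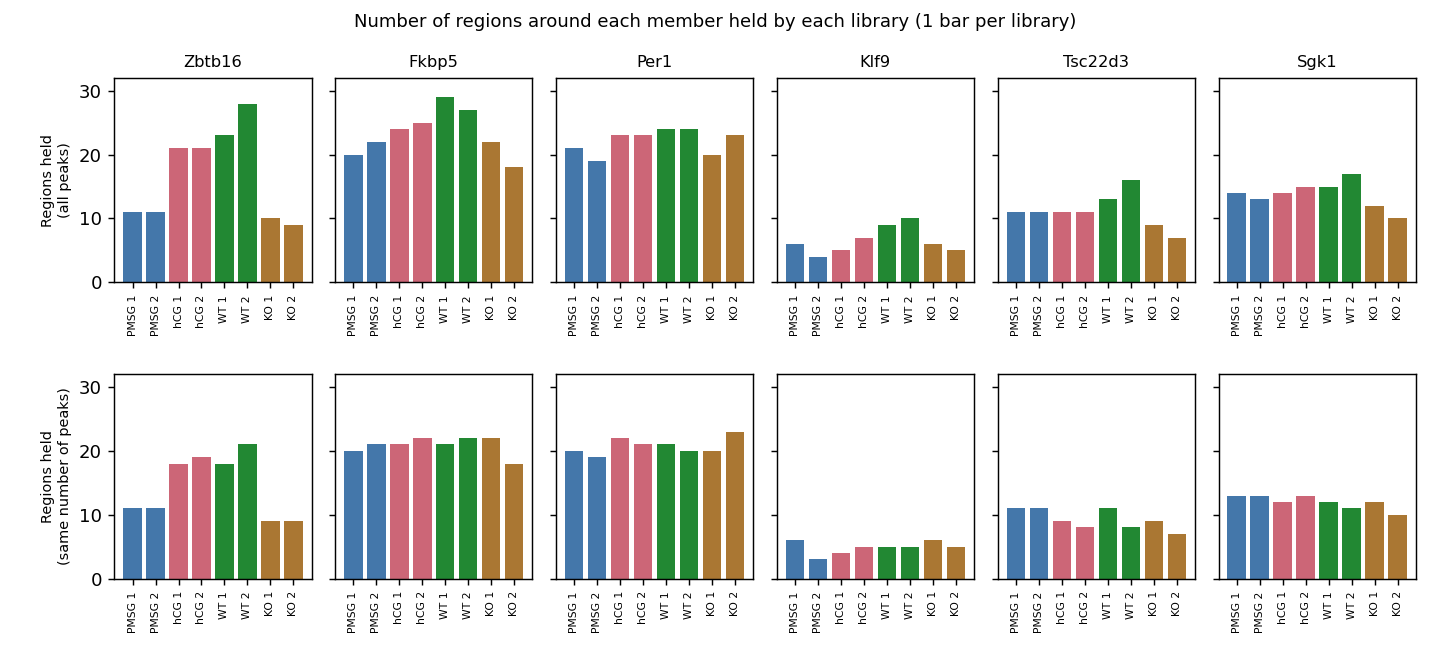
Number of regions around each member held by each of the 8 libraries (1 bar per library), with all peaks (top) and with the same number of peaks from every list (bottom). For Zbtb16 the hCG and WT bars stand between 18 and 28 and the PMSG and KO bars between 9 and 11; for the other members the groups differ by fewer regions in both panels.

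Fkbp5 encodes a co-chaperone of the receptors that lowers their affinity for hormone. On chromosome 17 (28398753 to 28486149), its window held 33 regions, and 14 of them were held by all 8 libraries. The lists held 20 and 22 regions in PMSG, 24 and 25 in hCG, 29 and 27 in WT, and 22 and 18 in KO. With equal lists they held 20 and 21 in PMSG, 21 and 22 in hCG, 21 and 22 in WT, and 22 and 18 in KO, and the groups overlapped. There were 2 hCG-only (6.06%, against 14.5% of all regions), 1 PMSG-only (3.03%, against 8.49%) and 2 WT-only regions (6.06%, against 11.2%) with all peaks. Equal lists gave 3 (10.7%, against 14.3%), 2 (7.14%, against 12.3%) and 0 (against 2.34%). Without KO replicate 1 the WT-only count was 8 (18.3% of all regions were then WT-only), without WT replicate 1 it was 4 (21.4%) and without WT replicate 2 it was 5 (17.8%). Without PMSG replicate 2 the hCG-only count was 6 (16.5% of all regions were then hCG-only), and without hCG replicate 1 it was 4 (16.6%).

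The promoter of Fkbp5 was open in every library (28485144 to 28486695), with a fold of 18.1 and 18.1 in PMSG, 15.1 and 12.7 in hCG, 13.7 and 16.6 in WT, and 12.1 and 13.8 in KO. Inside the gene, the hCG-only region at 28463843 to 28464263 had a fold of 9.33 and 7.85 in hCG, 5.63 and 7.06 in WT and 5.52 in KO replicate 1, with no interval in KO replicate 2. A region 16.3 kb before the promoter (28502161 to 28502691) was missing from PMSG replicate 1 and had a fold of 5.64 in PMSG replicate 2, 6.87 and 6.96 in hCG, 7.66 and 10.6 in WT, and 8.17 and 9.49 in KO. By fold the KO libraries thus lay between the 2 WT libraries. The percentile in the equal lists was 28 and 51.4 in WT, and 44.6 and 64.9 in KO, so that KO replicate 2 lay above both WT libraries.

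Per1, a repressor of the circadian clock that glucocorticoids induce quickly, lies in a gene-dense stretch of chromosome 11 (69095108 to 69109965). Its window held 26 regions and 7 other genes, among them Vamp2, Hes7 and Aurkb, and 17 regions were held by all 8 libraries. The number held was 21 and 19 in PMSG, 23 and 23 in hCG, 24 and 24 in WT, and 20 and 23 in KO. With equal lists it was 20 and 19 in PMSG, 22 and 21 in hCG, 21 and 20 in WT, and 20 and 23 in KO. None was WT-only (11.2% of all regions were), KO-only or PMSG-only, and 2 were hCG-only (7.69%, against 14.5%). Equal lists gave the same counts, with 2 hCG-only of 24 (8.33%, against 14.3%). Without 1 library at a time the WT-only count was 0, 1 or 2. Without WT replicate 1 it was 2 (21.4% of all regions were then WT-only). Leaving out KO replicate 2 gave 2 (14.8%), and leaving out WT replicate 2 gave 1 (17.8%). Without PMSG replicate 1 the hCG-only count was 4 (15.8% of all regions were then hCG-only). The first hCG-only region (69078801 to 69079139) had a fold between 5.57 and 6.47 in all 6 post-hCG libraries, KO included (5.57 and 5.63). The other (69102297 to 69102641), inside the gene, had a fold of 3.8 and 4.26 in hCG and 3.54 in WT replicate 2, and no interval elsewhere.

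Klf9, a Krüppel-like zinc-finger factor, lies on chromosome 19 (23141226 to 23168129) and had 12 regions in its window. PMSG libraries held 6 and 4, hCG 5 and 7, WT 9 and 10, and KO 6 and 5. Equal lists left 6 and 3, 4 and 5, 5 and 5, and 6 and 5, and no region was particular to a group by these rules. With all peaks 1 region was hCG-only (8.33%, against 14.5% of all regions), 1 PMSG-only (8.33%, against 8.49%) and 2 WT-only (16.7%, against 11.2%). The hCG-only region, at 23162378 to 23162753 in the gene, was also WT-only. Its fold was 5.42 and 4.36 in hCG and 5.28 and 4.29 in WT. Without WT replicate 1 the WT-only count was 4 (21.4% of all regions were then WT-only). The hCG-only count was 3 without hCG replicate 1 (16.6% of all regions) and 2 without PMSG replicate 1 (15.8%).

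A region open in every library set the PMSG cells apart at Klf9. At 23128138 to 23129013, 12.7 kb before the gene, the fold was 5.63 and 5.27 in PMSG, 10.5 and 11.1 in hCG, 10.1 and 14.1 in WT, and 10.3 and 11.3 in KO. Percentiles in the equal lists were 11.4 and 7.54 in PMSG and between 53.8 and 76.5 in the 6 post-hCG libraries. KO stood at 64.1 and 76.5, WT at 53.8 and 75.9. The promoter of Klf9 (23140343 to 23142970) showed no such order, with 58.8 and 54.8 in PMSG, 51.8 and 42.7 in hCG, 41.1 and 60.1 in WT, and 44.6 and 69.3 in KO.

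Tsc22d3 encodes the leucine-zipper protein GILZ, a mediator of anti-inflammatory glucocorticoid action, and lies on the X chromosome (140539528 to 140600522) with no other protein-coding gene in its window. Its 17 regions were held as 11 and 11 in PMSG, 11 and 11 in hCG, 13 and 16 in WT, and 9 and 7 in KO. With equal lists they were held as 11 and 11 in PMSG, 9 and 8 in hCG, 11 and 8 in WT, and 9 and 7 in KO, so that WT and KO then overlapped. There were 2 hCG-only (11.8%, against 14.5% of all regions), 2 PMSG-only (11.8%, against 8.49%) and 3 WT-only regions (17.6%, against 11.2%). In the equal lists, where 14 regions remained, 4 were PMSG-only (28.6%, against 12.3% of all regions), and 1 each was hCG-only, WT-only and KO-only (7.14% each, against 14.3%, 2.34% and 2.1%). With all peaks, the KO-only region (140600584 to 140601019) was held by all 8 libraries. Its fold was 3.79 and 4.07 in WT, and 3.13 and 3.77 in KO. Of the PMSG-only ones, that at 140503984 to 140504324 was then also held by all 8. The one at 140527218 to 140527586 was held by hCG replicate 1 as well. Without WT replicate 1 the WT-only count was 7 (21.4% of all regions were then WT-only), and without KO replicate 1 it was 5 (18.3%).

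Below the gene, the hCG-only region at 140505668 to 140506313 had a fold of 10.2 and 9.52 in hCG, 8.03 and 10.9 in WT, and 5.56 and 4.84 in KO. Its percentile in the equal lists was 60.4 and 52.1 in hCG, 32.2 and 54 in WT, and 16.5 and 15.1 in KO, so both KO libraries lay below the other 4 that held it. In the gene, the region at 140567710 to 140568088 was PMSG-only (10.2 and 8.76) and WT-only (8.46 and 4.46). The region at the inner start (140541932 to 140543551) was open in all libraries, with a fold between 8.37 and 11.6.

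Sgk1, a kinase that regulates ion transport and cell survival, spans 118 kb of chromosome 10 (21882184 to 21999903). It had 21 regions, held as 14 and 13 in PMSG, 14 and 15 in hCG, 15 and 17 in WT, and 12 and 10 in KO. With all peaks 4 regions were WT-only (19%, against 11.2% of all regions), all over the gene body, and 1 was hCG-only (4.76%, against 14.5%). The 17 regions left in the equal lists were held as 13 and 13, 12 and 13, 12 and 11, and 12 and 10, with 1 WT-only (5.88%, against 2.34%) and 1 hCG-only (5.88%, against 14.3%). The WT-only one, at 21973492 to 21973996, had a fold of 6.26 and 7.18 in WT and no interval in the other 6 libraries. Without hCG replicate 2 or PMSG replicate 1 the hCG-only count was 2 (17.8% and 15.8% of all regions were then hCG-only).

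RefSeq gives 6 start sites for Sgk1, and they were not equally open. The one at 21994666 was covered by a peak in all 8 libraries, with a fold of 9.27 and 9.06 in PMSG, 7.2 and 7.63 in hCG, 8.58 and 10.4 in WT, and 8.24 and 10.7 in KO. The start at 21882184 was covered in 7 libraries, not in KO replicate 2, whose interval in that region lay beside the start. The region there (21882033 to 21882783) had a fold of 12.1 and 14.2 in PMSG, 12.5 and 12 in hCG, 12.8 and 13.3 in WT, and 9.29 and 7.54 in KO. Its percentile in the equal lists was 55.6 and 48.4 in KO and between 69.1 and 78.8 in the other 6 libraries. The starts at 21978672, 21986104 and 21992223, and the one at 21993890, whose promoter window holds the palindrome printed above, had no peak over them in any library. Just after the start at 21993890, however, a region held by all 8 libraries began at 21993927. Beyond the start at 21978672, a region held by 6 libraries began at 21978690, where KO replicate 1 alone reached that far.

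**Figure D4:**
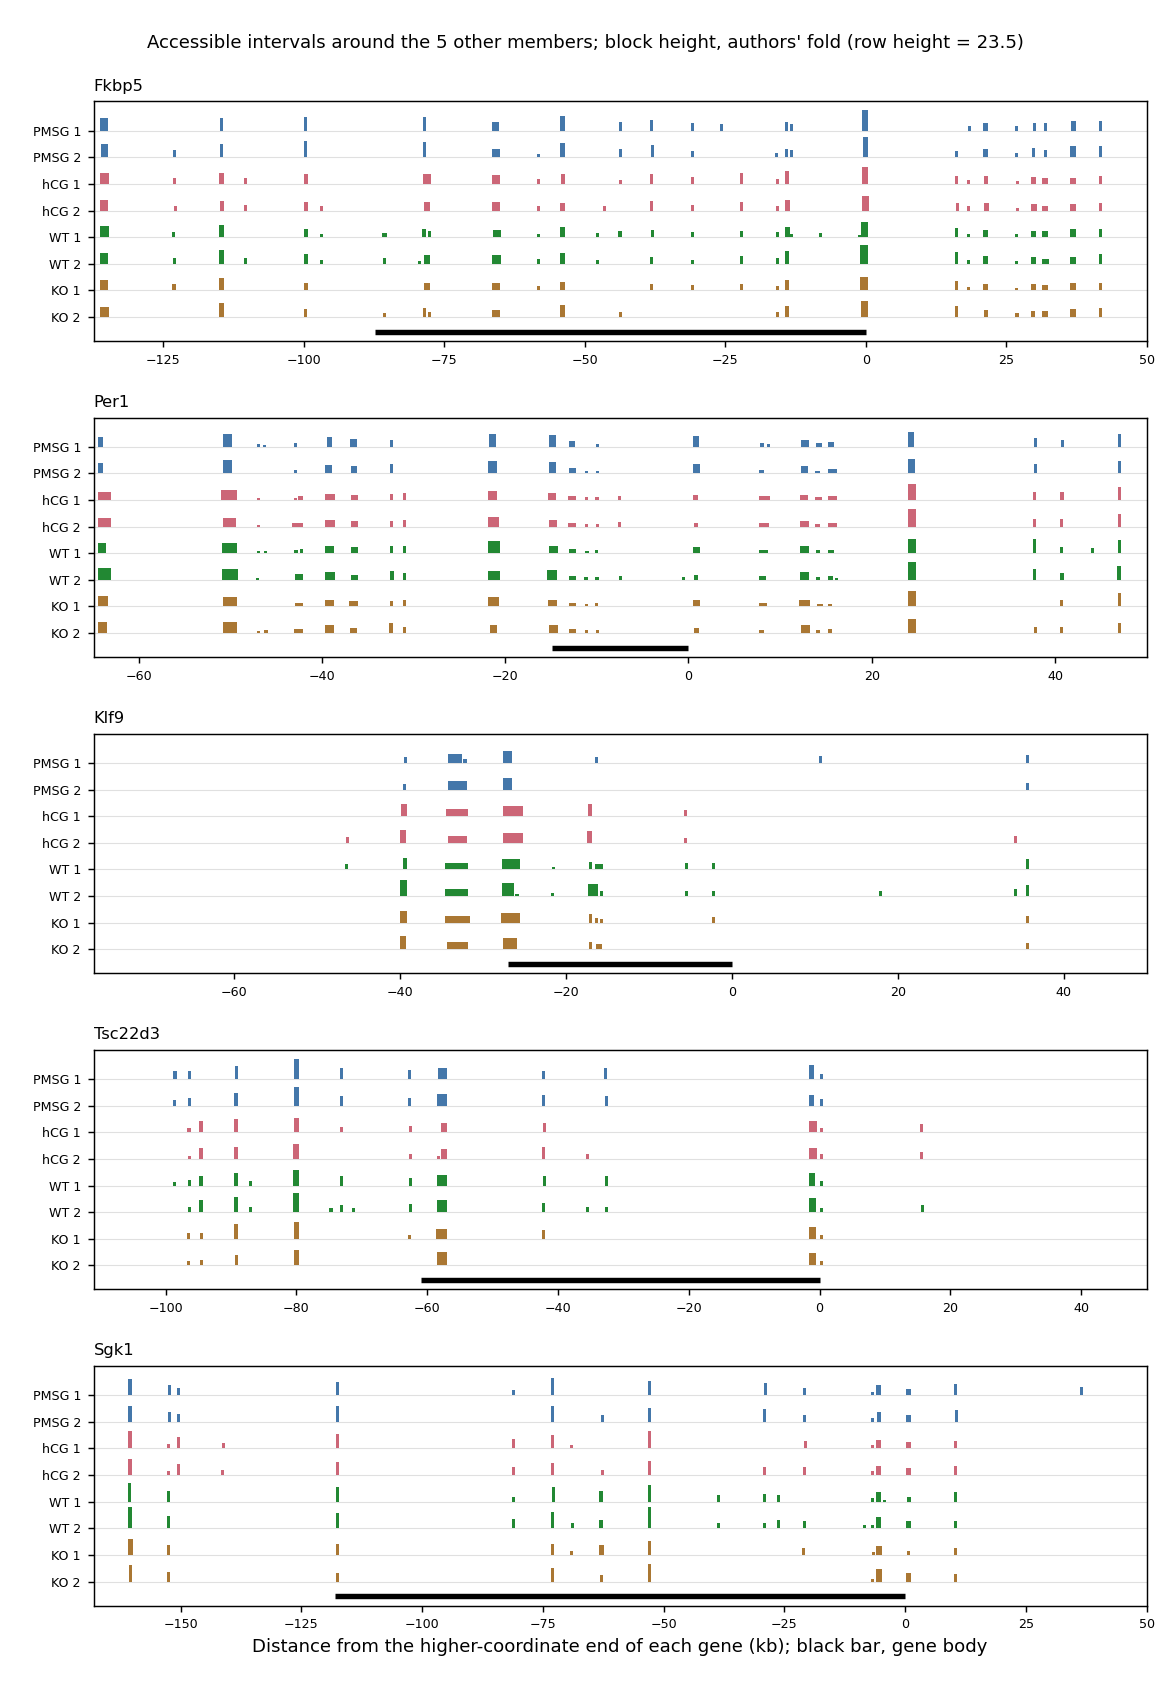
Accessible intervals around Fkbp5, Per1, Klf9, Tsc22d3 and Sgk1, by distance in kb from the higher-coordinate end of each gene; rows are libraries, block height is the authors' fold and narrow intervals are widened to be visible. All 8 libraries held 14 of 33, 17 of 26, 3 of 12, 6 of 17 and 9 of 21 regions.

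Counted over the 6 genes, 23 of 138 regions were WT-only (16.7%), 0 KO-only, 19 hCG-only (13.8%) and 5 PMSG-only (3.62%). Of all regions of the series, 11.2% were WT-only, 0.0743% KO-only, 14.5% hCG-only and 8.49% PMSG-only, so the hCG-only share of the members was near that of all regions. Where an interval had to cover 50% of a region, 34 of the 138 were hCG-only (24.6%, against 19.6% of all regions). Zbtb16 supplied 12 of the 23 WT-only and 11 of the 19 hCG-only regions. With equal lists 10 of 114 were WT-only (8.77%), 8 of them at Zbtb16, and 1 was KO-only (0.877%), against 2.34% and 2.1% of all regions. There 16 were hCG-only (14%, against 14.3%) and 7 PMSG-only (6.14%, against 12.3%). Without WT replicate 1 the WT-only count over the 6 genes was 39 (against 21.4% of all regions of the series), and without PMSG replicate 2 the PMSG-only count was 9 (against 11% of them). For single genes, the PMSG-only count was 1 higher at Fkbp5, Per1, Klf9 and Sgk1 without PMSG replicate 2, at Fkbp5 and Tsc22d3 without hCG replicate 1 and at Sgk1 without hCG replicate 2. At Zbtb16 the WT-only count was between 12 and 17 and the hCG-only count 11 whichever single library was left out.

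**Figure D5:**
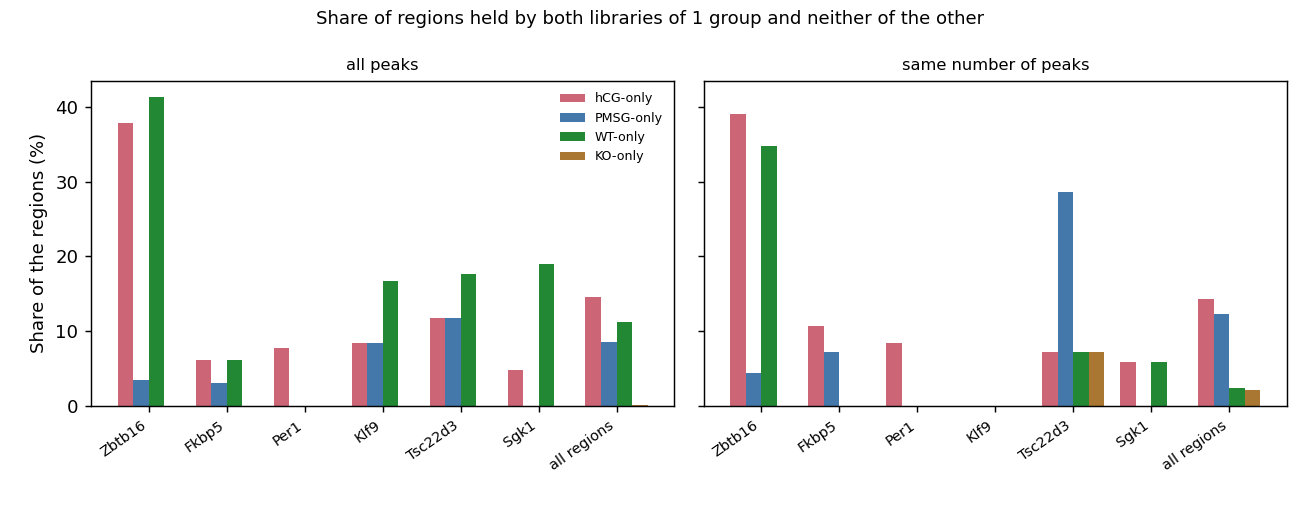
Share of the regions around each member, and of all regions of the series, held by both libraries of 1 group and neither of the other, with all peaks (left) and the same number of peaks per list (right). For Zbtb16 the WT-only share is 41.4% and 34.8%, against 11.2% and 2.34% of all regions.

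Other genes of the pathway were taken from 3 lists. Around 20 other genes that glucocorticoids or progesterone induce, 30 of 225 regions were hCG-only (13.3%) and 25 WT-only (11.1%), and in the equal lists 26 of 191 were hCG-only (13.6%) and 4 WT-only (2.09%). These shares were near those of all regions. Ddit4, a stress-induced inhibitor of mTOR signalling, had 6 hCG-only regions of 18, and Glul, glutamine synthetase, had 3 hCG-only and 3 PMSG-only of 14. The metallothionein genes Mt1 and Mt2, whose windows overlap, had 3 WT-only regions each. A total of 16 of the 20 genes had a WT-only region with all peaks and 4 (Errfi1, Hif3a, Rgs2 and Sesn1) in the equal lists. Of all 21631 genes, 14.5% had a WT-only region in the equal lists. The median was 1.5 WT-only regions a gene with all peaks and 0 in the equal lists, against 1 and 0 over all genes.

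Among 11 chaperones and co-chaperones of the receptors, 14 of 119 regions were hCG-only (11.8%, against 14.5% of all regions) and 5 WT-only (4.2%, against 11.2%). Hsp90ab1, the constitutive HSP90, had 4 hCG-only regions of 17 (1 of 15 in the equal lists), and Ppp5c, a phosphatase bound to HSP90, had 2 WT-only of 13. In the equal lists 8 of 104 regions were hCG-only (7.69%, against 14.3%), 1 was WT-only (0.962%, against 2.34%) and 4 were KO-only (3.85%, against 2.1%). For 12 relatives of the members from the same families, 14 of 153 regions were hCG-only (9.15%) and 13 WT-only (8.5%), both shares below those of all regions. Klf13 had 5 WT-only regions of 18 (2 of 14 in the equal lists), and Tsc22d1 had 4 PMSG-only and 2 hCG-only regions of 27. With equal lists 11 of the 132 regions around relatives were hCG-only (8.33%, against 14.3%). There 7 were WT-only and 7 KO-only, 5.3% each, against 2.34% and 2.1% of all regions; 3 of the KO-only regions were at Tsc22d1.

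The genes most like Zbtb16 were sought among 7315 genes with 10 or more regions, by the Pearson correlation, over the 8 libraries, of the number of regions held in the equal lists. Hipk2, a nuclear kinase, came nearest (r = 0.983), with 17 and 17 regions in PMSG, 19 and 19 in hCG, 19 and 20 in WT, and 17 and 17 in KO, a smaller step than at Zbtb16. Next were Zscan10 (0.983), Ociad1, Sbk3 and Tcof1 (0.97 each), with steps of 1 to 3 regions. The libraries share their list lengths and strains across genes, so the correlation is a description of shape.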

How the data were processed

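Libraries were grouped by their titles. Per the submitters' processing notes, the authors used Bowtie2, MACS2 and the build mm10; versions are not given in the sources used here, nor is any shift of reads for the Tn5 cut. The authors deposited 1 peak list per library, without pooling. Column 7 of the deposited lists was read as a ratio, the fold enrichment at a summit over the library's background. Columns 8 and 9 of the deposited lists were taken to hold −log10 values (p in column 8, q in column 9), and no −log10 q was under 10. The score of column 5 of the deposited lists was not used. Peak names of the PR lists, and not of the LH lists, mention filtering and marked duplicates, so processing by the authors may differ between experiments; experiment and strain cannot be told apart. Read depth is unknown.

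Summits of an interval were joined, keeping the best fold, and intervals of the 8 lists sharing 1 bp were merged into regions (Python 3.11.15, pandas 2.3.3), on chromosomes 1 to 19 and X. The merging was tested on simulated data. Equal lists held the 55654 intervals with the best −log10 q. Genes came from RefSeq (GRCm38.p6). With 2 against 2 libraries an exact test cannot go below p = 0.333, and none was run. Members and lists were chosen with earlier results of these data known. Named were the 6 members, up to 4 genes per list with the most group-only regions, and the 5 genes most like Zbtb16; Errfi1, Hif3a, Rgs2 and Sesn1 are the genes of the first list with a WT-only region in the equal lists, and the genes in the members' windows were named for their position. Alternatives were equal lists, merging within the experiment, 10 kb flanks, a −log10 q of 20 or more, intervals covering 50% of a region, and leaving out each library.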

Additional observations from a re-analysis of the deposited data

How the results depend on the processing

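Over the 6 members, the 19 hCG-only, 5 PMSG-only, 23 WT-only and 0 KO-only regions were recounted under each alternative; changes over 1.5 times follow. With equal lists the WT-only count was 10 and the KO-only count 1. Requiring intervals to cover 50% of a region gave 34 hCG-only regions (19.6% of all regions of the series were then hCG-only), and 10 kb flanks gave 3 PMSG-only regions. Leaving out 1 library gave 27 to 39 WT-only (against 14.8% to 21.4% of all regions of the series) and 0 KO-only regions. It gave 20 to 24 hCG-only (against 15.8% to 17.8%) and 5 to 9 PMSG-only regions (against 9.27% to 11%). The cause of these shifts was not tested; leaving out a library by construction relaxes the rule. Of 147 values for single genes with a count above 0, 102 stayed within 1.5 times and 45 did not. No paired analysis was possible because the counts come from no test. Depth is unknown, so a missing peak may lie just under the authors' threshold.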

Other observations

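One region near Sgk1 separated the experiments rather than the groups. At 21849255 to 21849712 on chromosome 10, 32.7 kb below the gene, the authors' fold was 6.58 and 6.83 in PMSG and 10.5 and 10.1 in hCG, and no WT or KO library had an interval. Next to it, at 21847137 to 21847816, the fold was 9.39 and 8.57 in PMSG, 4.23 and 4.01 in hCG, 9.26 and 10.9 in WT, and 8.96 and 8.38 in KO, so that the hCG libraries alone were low. The experiments differ in strain and in the authors' peak names, and these cannot be told apart. Both regions were picked after their values were seen.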
